A study of Mus musculus with 46 samples.

Results

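The molecules that let leukocytes roll along, arrest on and cross a vessel wall were examined as a group of 9 genes, taken by symbol from the 53465 genes of an expression table of sorted mouse kidney cells: the selectins Sele and Selp, the immunoglobulin-family ligands Icam1, Icam2, Vcam1 and Alcam, the junctional molecules Jam2 and Pecam1, and Vwf. All 9 were found, each on a single row. The mice were wild-type male C57BL/6 animals of 8 to 12 weeks that had sham surgery, unilateral ureteric obstruction (UUO) or obstruction followed by reimplantation of the ureter (rUUO), the last taken 14 days after reversal. UUO kidneys were collected at day 2 and at day 7 according to the methods, and the sample labels do not say which day a UUO sample comes from. PT cells were sorted with Lotus lectin (LTL+), macrophages by F4/80, endothelial cells by CD31 and stromal cells by PDGFRB.

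Endothelial cells were represented by 4 sham, 3 UUO and 4 rUUO samples, stromal cells by 4 of each, macrophages by 4, 4 and 3, and PT cells by 3, 4 and 3. The series describes sequencing from 4 mice in each group, and replicates are named by the numbers in the labels. One PT sample (UUO replicate 2) carries both surgeries in its title and was placed by its treatment label, and the calls in PT cells were the same without it. Values are FPKM, fragments per transcript length and sequencing depth, and can be compared between genes. Depth in reads is unknown, since the table gives no counts. Relative depth, read from the steps between low values, ran from 0.611 to 1.623 over the 44 samples, and the 37 mitochondrial genes took 20.2 to 75.6% of the FPKM sum. Each of the 44 samples correlated best with a sample of its own population. No source used here ties each numbered sample to a mouse, so p-values measure the spread between these samples. In sorted bulk RNA, fewer cells of a type and less RNA per cell cannot be told apart.

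As background, selectins on activated endothelium slow passing leukocytes by binding sialylated carbohydrates such as those on PSGL-1. ICAM-1, ICAM-2 and VCAM-1 then hold the cell through its integrins, and JAM-B and PECAM-1 sit at the junctions through which it crosses. P-selectin and von Willebrand factor are stored together in Weibel-Palade bodies of endothelial cells. E-selectin, ICAM-1 and VCAM-1 can be raised by inflammatory signals that reach NF-kB. Outside the vessel wall, VCAM-1, ICAM-1 and ALCAM are also known on stromal cells, macrophages and injured tubular epithelium.

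Sele (chr1:164048234-164057677) and Selp (chr1:164115264-164150026) lie 57586 bases apart on the plus strand in GRCm38, and Icam2 (chr11:106377656-106388075) and Pecam1 (chr11:106654217-106750628) lie 266141 bases apart on the minus strand. Icam1 is at chr9:21015985-21028817, plus strand, and Vcam1 at chr3:116109949-116129688, minus strand. Alcam is at chr16:52248996-52454074, minus strand, Jam2 at chr16:84774123-84825928, plus strand, and Vwf at chr6:125546774-125686679, plus strand. RefSeq promoter windows (GRCm38.p6, 250 bases before to 50 after the start) were at hand for 4 members, Sele, Selp, Icam1 and Alcam. They were searched on both strands for GGNNNTTCC, the letters of a relaxed NF-kB site, for TGACTCA (AP-1), for TGACATCA (ATF) and for TATAAA, a choice made after these windows had been read. Runs around the matches in Sele and Icam1, the members whose promoters are textbook examples of induction in endothelium, and around the single match in Selp are shown 5′ to 3′ on the strand of the gene, with the matched letters in capitals.
Sele, chr1:164048047-164048076: ggcagagtctcTGACATCActatgaaagtg
Sele, chr1:164048079-164048108: ttaactcagtGGATATTCCcagaaaacttt
Sele, chr1:164048150-164048179: ataatgtcctaTGACTCAcaggaagccagc
Icam1, chr9:21015777-21015806: acttcagtttGGAAATTCCtagatcgcagg
Icam1, chr9:21015846-21015875: gtctccacccGGAAATACCgaagccctcgt
Selp, chr1:164115240-164115269: caactttaggGGAAAGGCCgtgatacattt
The Sele window held the ATF, NF-kB and AP-1 letters in this order, 176, 145 and 73 bases before the start, and TATAAA after them. In the Icam1 window the NF-kB letters began 153 bases before the start, where they matched on both strands, and 84 bases before it on the other strand, and TATAAA lay 14 bases after it. These positions count from the RefSeq start, which for Sele and Selp is the start in the deposited table, for Icam1 lies 45 bases before the start in that table, so that its TATAAA lies between both starts, and for Alcam lies 993 bases after it. Selp held only the match on the other strand 14 bases before its start, and Alcam held none of the 4 motifs. Of 32851 promoter windows of the same length, 18.5% held GGNNNTTCC, 5.2% TGACTCA, 3.62% TGACATCA and 13.6% TATAAA, so a match describes the letters and not a site in use. None of the motifs overlapped another in these windows.

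In sham kidneys the endothelial samples held most of this group of transcripts. All of the 8 members tested were higher in endothelial cells than in PT cells (62.3% of 14204 genes were called, 53.6% higher and 8.73% lower), 6 were higher and 2 lower than in stromal cells (24.2% called, 10.2% higher and 14% lower), and 5 were higher and 2 lower than in macrophages (45.7% called, 24.5% higher and 21.2% lower). The 2 lower ones were the same in both, Vcam1 and Alcam. The mean of Icam2 in endothelial cells was 5.68 times that in stromal cells (log2 difference 2.49 ± 0.20 SE, adjusted p = 2.72e-08), that of Jam2 5.74 times (2.38 ± 0.31 SE, adjusted p = 1.32e-05) and that of Vwf 12.1 times (3.20 ± 0.46 SE, adjusted p = 3.46e-05). Alcam was at 4.32 FPKM in endothelial cells and 20.6 in stromal cells (-2.01 ± 0.27 SE, adjusted p = 1.68e-05). The difference of Selp from macrophages did not pass (0.67 ± 0.41 SE, adjusted p = 0.201). Sele was below the mean of 1 FPKM needed for testing over the sham samples. Pecam1 encodes CD31, on which the endothelial cells were sorted, so its difference between populations is no finding. It is nevertheless 1 of the higher members in each of the 3 counts above. Selp, counted as higher than in stromal and PT cells, passed the filter on low values only with its endothelial samples. Among the endothelial calls, that of Icam1 over macrophages was lost without endothelial sham replicate 1 or 2 or macrophage sham replicate 1 or 2 (adjusted p from 0.0519 to 0.0648) and with a pseudocount of 0.1. That of Vcam1 below stromal cells was lost without endothelial sham replicate 1 or stromal sham replicate 1 or 2 (adjusted p = 0.05 to 0.0553), and that of Alcam over PT cells without endothelial sham replicate 2 (adjusted p = 0.0631) or PT sham replicate 4 (adjusted p = 0.0931). That Alcam call was also lost with the mitochondrial genes left out of the scale (0.28, adjusted p = 0.487). The Alcam difference from PT cells turned from 0.83 to -0.25 on the log2 scale after quantile normalization, which took the median of all genes in that comparison from 0.93 to 0.06, while the other 7 members stayed higher in endothelial cells.

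**Figure D1:**
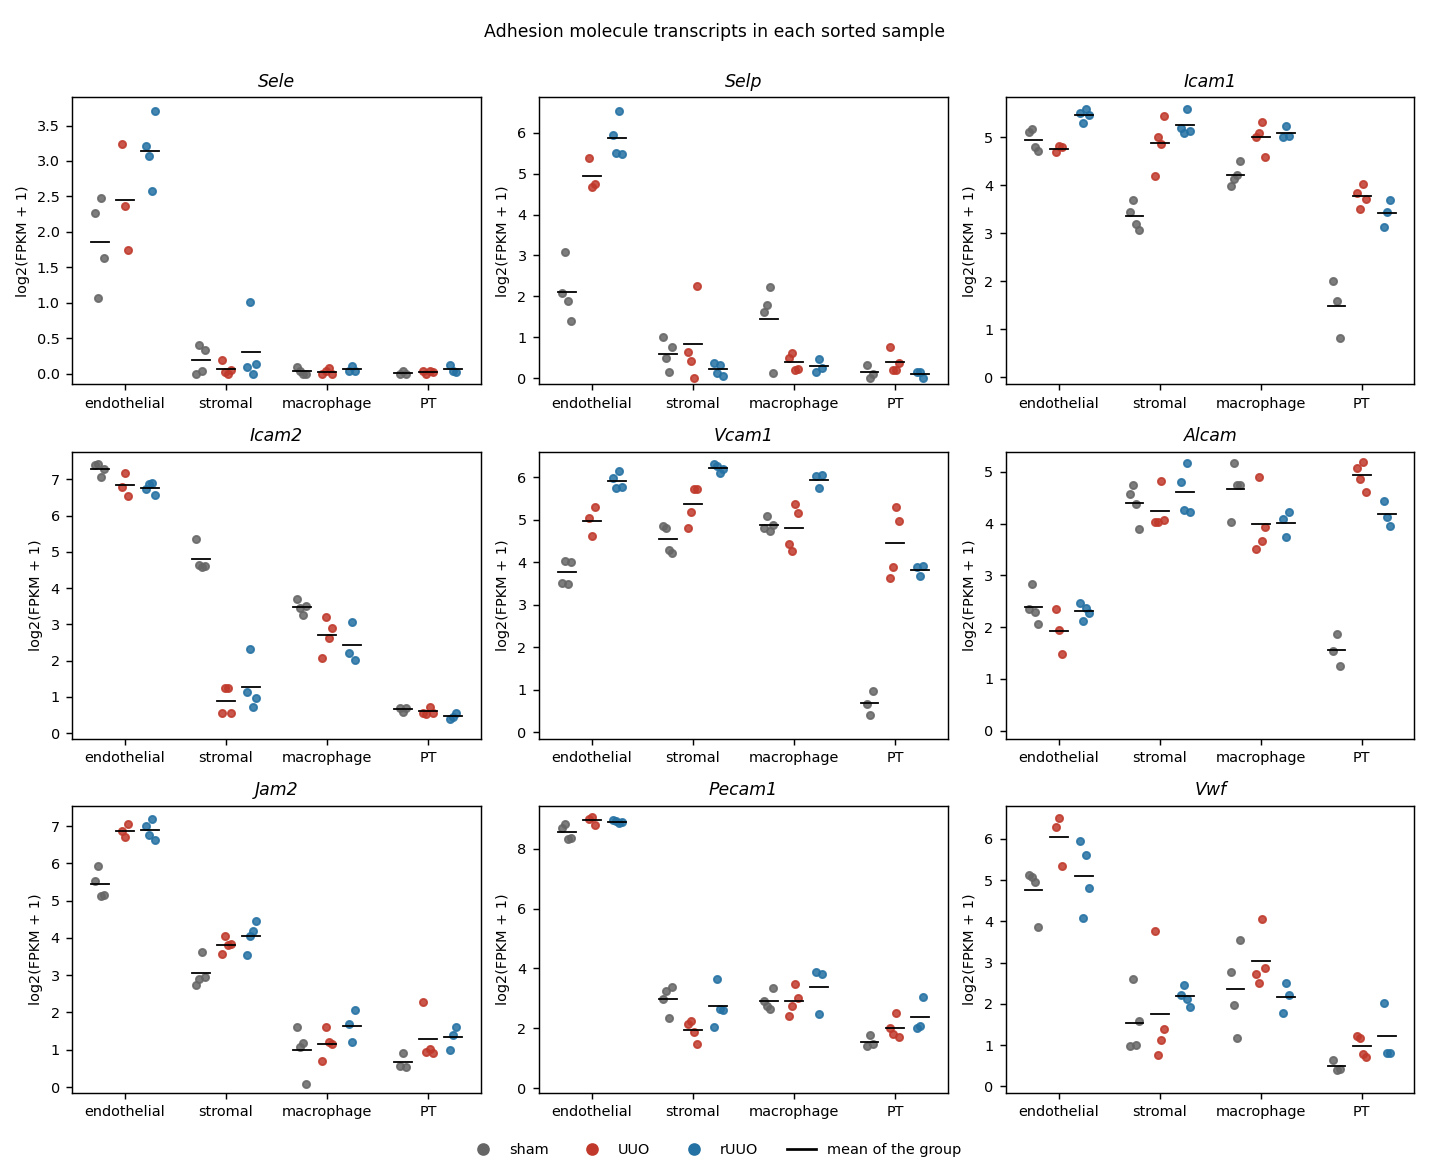
Each point is 1 sorted sample and each panel 1 gene, with log2(FPKM + 1) on the vertical axis, the 4 populations along the horizontal axis, colours for surgery and a bar at the mean of each group. Sele and Selp points stand apart from the baseline mainly in endothelial cells. Vcam1 and Alcam rise from the PT sham samples to levels seen in samples of other populations. Icam1 rises from them to group means between those of stromal and macrophage sham, below all injured samples of the other populations.

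Of the 9 members in endothelial cells, Selp, Vcam1 and Jam2 rose after UUO, none fell, and 6 did not pass the test (1.98% of 13393 genes were called, 1.28% higher and 0.702% lower). The median change of the 9 was 0.59 on the log2 scale, beside 0.03 over all genes tested. The same 3 genes were above sham after rUUO, again with none below (1.77% of genes called, 1.4% higher and 0.366% lower), and the median was 0.52 beside 0.19. Between UUO and rUUO no member passed the limma test (0.0597% of genes called, 0.0448% higher and 0.0149% lower). An unadjusted p under 0.05 was found for 4 members, and the share of all genes at that level was not worked out. These comparisons share samples, so each is given with its own values. Median changes over all genes in this section are those of the deposited scale.

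Selp, which encodes P-selectin, had the largest endothelial rise among the members. In endothelial cells it was measured at 3.26, 7.55, 2.69 and 1.64 FPKM after sham surgery, at 40.97, 24.68 and 25.91 after UUO and at 60.89, 44.46, 91.62 and 43.5 after rUUO. The 3 groups did not overlap, and every rUUO sample was above every UUO sample. The mean was 8.06 times that of sham after UUO (log2 change 2.82 ± 0.37 SE, adjusted p = 0.000592) and 15.9 times after rUUO (3.75 ± 0.34 SE, adjusted p = 4.28e-05). The step from UUO to rUUO was 0.93 ± 0.37 SE and did not pass the limma test (adjusted p = 0.433). As a percent of the summed FPKM of 8 endothelial markers, Selp ran from 0.0526 to 0.195 in sham, from 0.702 to 1.32 in UUO and from 1.35 to 3.12 in rUUO samples.

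Outside the endothelium Selp stayed low. Macrophage sham samples had 2.06, 2.45, 3.71 and 0.1 FPKM, and no macrophage sample after UUO or rUUO was above 0.53 FPKM. Stromal samples were at or below 3.77 FPKM, and PT samples at or below 0.71. The endothelial change after UUO was larger than that in stromal cells by 2.60 ± 0.55 SE on the log2 scale (adjusted p = 0.000776), than that in macrophages by 3.88 ± 0.55 SE (adjusted p = 1.5e-05) and than that in PT cells by 2.58 ± 0.57 SE (adjusted p = 0.0014). With a pseudocount of 0.1 the differences from stromal cells (3.11, adjusted p = 0.075) and from PT cells (2.12, adjusted p = 0.246) no longer passed. Selp reached the mean FPKM needed for these tests of the difference only through its endothelial values.

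Sele, which encodes E-selectin, was an endothelial transcript of low level. Its endothelial values were 3.81, 1.1, 4.59 and 2.11 FPKM with sham surgery, 8.49, 4.17 and 2.35 with UUO, and 8.24, 7.38, 4.99 and 12.09 with rUUO. Each rUUO sample was above the highest sham sample, while UUO overlapped both. The log2 change was 0.59 ± 0.44 SE after UUO (adjusted p = 0.629) and 1.28 ± 0.41 SE after rUUO (adjusted p = 0.144), neither past the limma test. In a fit over all 4 populations the rUUO difference passed (adjusted p = 0.00247). That fit takes its spread also from populations where Sele was near 0, so the pass adds no support to an endothelial rise. In the other populations 1 stromal rUUO sample reached 1.02 FPKM and group means were at most 0.298 FPKM.

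Icam1, the ligand of the beta-2 integrins LFA-1 and Mac-1, rose after UUO in the 3 populations other than endothelium. Sham endothelium had 33.29, 34.77, 26.94 and 25.21 FPKM, UUO samples 24.68, 27.14 and 26.59, and rUUO samples 44.15, 38.02, 47.16 and 43.24. Sham and UUO overlapped (log2 change -0.18 ± 0.20 SE, adjusted p = 0.773). All 4 rUUO samples were above every sham and UUO sample, but the difference from sham of 0.52 ± 0.19 SE (adjusted p = 0.209) and that from UUO of 0.70 ± 0.20 SE (adjusted p = 0.238) did not pass the limma test.

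Stromal Icam1 stood at 9.9, 12.01, 8.13 and 7.39 FPKM with sham surgery, at 17.16, 30.9, 28.16 and 42.31 with UUO and at 35.66, 32.84, 46.82 and 34.05 with rUUO. No injured sample overlapped sham. The log2 change was 1.52 ± 0.26 SE after UUO (adjusted p = 0.000404) and 1.90 ± 0.26 SE after rUUO (adjusted p = 9.11e-05). PT cells had 3.03, 2.02 and 0.77 FPKM with sham surgery, 13.22, 10.42, 15.34 and 12.16 with UUO, and 7.72, 9.86 and 12 with rUUO. The PT mean was 6.59 times that of sham after UUO (2.30 ± 0.30 SE, adjusted p = 6.16e-05) and 5.08 times after rUUO (1.95 ± 0.32 SE, adjusted p = 0.00134).

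In macrophages Icam1 was 14.89, 16.62, 17.66 and 21.77 FPKM in sham, 31.08, 33.18, 38.95 and 23.03 in UUO and 31.17, 36.56 and 31.35 in rUUO. The groups did not overlap sham, with a log2 change of 0.79 ± 0.20 SE after UUO (adjusted p = 0.0424) and 0.87 ± 0.22 SE after rUUO (adjusted p = 0.0466). Both calls were close to the threshold. That after UUO was lost without macrophage sham replicate 1, 2 or 3 or macrophage UUO replicate 1, 2 or 3 (adjusted p from 0.0604 to 0.12), and that after rUUO without macrophage sham replicate 1, 2 or 3 or any of the 3 rUUO replicates (adjusted p from 0.0935 to 0.176). Both were also lost with no filter on low values (adjusted p = 0.061 and 0.059) and with the mitochondrial genes left out of the scale (0.0505 and 0.0692), and the first with quantile normalization (0.0578). Fitting the replicate numbers as a block ended both calls too. The endothelial change of Icam1 after UUO was lower than the stromal one by 1.70 on the log2 scale (difference -1.70 ± 0.33 SE, adjusted p = 0.000244) and than the PT one (-2.48 ± 0.34 SE, adjusted p = 1.11e-06), while the difference from macrophages of -0.97 ± 0.33 SE did not pass (adjusted p = 0.112).

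Vcam1, the ligand of the integrin VLA-4, rose after UUO in endothelial, stromal and PT cells. The endothelial samples read 10.48, 15.31, 10.26 and 14.94 FPKM in the sham group, 31.62, 23.39 and 38.31 in the UUO group, and 62.21, 52.95, 70.16 and 53.74 in the rUUO group. The 3 groups did not overlap. The endothelial log2 change was 1.22 ± 0.24 SE after UUO (adjusted p = 0.0129) and 2.16 ± 0.22 SE after rUUO (adjusted p = 6.77e-05), and the step from UUO to rUUO of 0.94 ± 0.24 SE did not pass (adjusted p = 0.168). The UUO call was lost without endothelial UUO replicate 1 (adjusted p = 0.0607) or replicate 4 (adjusted p = 0.0529), and with the replicate numbers fitted as a block.

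Stromal cells already had more Vcam1 in sham. Their values were 27.64, 26.94, 18.59 and 17.46 FPKM in sham, 27.03, 35.38, 51.81 and 51.79 in UUO, and 78.22, 75.8, 67.34 and 72.1 in rUUO. UUO overlapped sham, and every rUUO sample was above both. The change was 0.82 ± 0.23 SE after UUO (adjusted p = 0.0141), 0.85 ± 0.23 SE from UUO to rUUO (adjusted p = 0.0484) and 1.68 ± 0.23 SE from sham to rUUO (adjusted p = 9.32e-05). The UUO change of Vcam1 missed the threshold when the mitochondrial genes were left out of the scale (adjusted p = 0.0542). The step from UUO to rUUO was lost without stromal UUO replicate 1 or 2 or any of the 4 stromal rUUO replicates (adjusted p from 0.0815 to 0.122), with no filter on low values, with quantile normalization and with the mitochondrial genes left out. It was also lost with the replicate numbers as a block.

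Macrophage Vcam1 was 26.91, 32.8, 25.43 and 28.5 FPKM in sham, 20.56, 18.19, 40.35 and 34.39 in UUO and 64.0, 52.21 and 64.89 in rUUO. UUO spread to both sides of sham (log2 change -0.07 ± 0.24 SE, adjusted p = 0.911), and all 3 rUUO samples were above every other macrophage sample. The rUUO difference from sham was 1.06 ± 0.26 SE (adjusted p = 0.0417), a call lost without any 1 of the 7 samples (adjusted p from 0.0695 to 0.152) and with no filter on low values (adjusted p = 0.0932). That call was also lost with the replicate numbers as a block. The step from UUO to rUUO of 1.13 ± 0.26 SE did not pass the limma test (adjusted p = 0.244).

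PT cells, which in sham had 0.59, 0.33 and 0.97 FPKM of Vcam1, reached 11.3, 13.69, 38.27 and 30.42 with UUO and 13.69, 11.72 and 14.07 with rUUO. The PT change was 3.76 ± 0.37 SE after UUO (adjusted p = 4.23e-06) and 3.13 ± 0.39 SE after rUUO (adjusted p = 0.00013). Its endothelial change after UUO was smaller than that of PT cells by 2.54 on the log2 scale (difference -2.54 ± 0.41 SE, adjusted p = 2.26e-05). From UUO to rUUO the order was the other way, with a difference of 1.56 ± 0.41 SE (adjusted p = 0.0349). That second difference was lost without endothelial UUO replicate 2, endothelial rUUO replicate 1 or 4, PT UUO replicate 3 or 4, or PT rUUO replicate 2 or 3 (adjusted p from 0.0533 to 0.0905), with no filter on low values, with quantile normalization and with the mitochondrial genes left out of the scale.

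Alcam, a homophilic adhesion molecule that also binds CD6 on T cells, was low in endothelial samples and in PT sham samples. PT cells went from 1.91, 2.65 and 1.38 FPKM with sham surgery through 32.75, 28.23, 35.58 and 23.32 with UUO to 20.73, 16.47 and 14.52 with rUUO. The 3 PT groups did not overlap. The PT mean was 15.1 times that of sham after UUO (log2 change 3.38 ± 0.25 SE, adjusted p = 2.31e-07) and 8.71 times after rUUO (2.62 ± 0.26 SE, adjusted p = 1.79e-05), and the step down from UUO to rUUO of -0.76 ± 0.25 SE did not pass (adjusted p = 0.1).

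Endothelial Alcam stayed between 1.79 and 6.11 FPKM over all 11 samples, and its UUO change was lower than that of PT cells (difference -3.84 ± 0.42 SE, adjusted p = 1.16e-08). Stromal samples ran from 13.88 to 35.17 FPKM with a log2 change of -0.16 ± 0.28 SE after UUO (adjusted p = 0.716). Macrophage samples ran from 10.35 to 34.84 FPKM with a change of -0.67 ± 0.32 SE (adjusted p = 0.262).

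Of the 5 members tested in PT cells, Icam1, Vcam1 and Alcam rose after UUO and none fell, where 32.8% of 11416 genes were called, 27.9% higher and 4.91% lower. The same 3 were above sham after rUUO, where 7.46% were called, 6.52% higher and 0.946% lower. Between rUUO and UUO none of the 5 passed the limma test (3.83% of genes called, 0.674% higher and 3.15% lower), with 1 at an unadjusted p under 0.05. The median of the 5 was 2.30 on the log2 scale after UUO, beside 0.51 over all genes tested. Quantile normalization took the median of all genes to -0.02, and the 3 still passed. Sele, Selp, Icam2 and Vwf had too little signal in PT cells to be tested. PT marker sums moved with surgery, being 1824 to 2457 FPKM with sham surgery, 484 to 672 with UUO and 1125 to 1381 with rUUO samples, and their part in these results was not tested. The summed endothelial markers ran from 12.2 to 20.6 FPKM in PT sham and from 12.95 to 34.98 in PT UUO, against at least 2750 in endothelial samples. Pecam1 in PT cells was 1.66 to 2.39 FPKM in sham and 2.3 to 4.74 in UUO, a difference that did not pass the test (adjusted p = 0.289).

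Icam2, a beta-2 integrin ligand kept on resting endothelium, was the member that fell most. Stromal samples had 39.66, 24.1, 22.91 and 23.37 FPKM of it with sham surgery, but 0.46, 1.37, 1.37 and 0.47 with UUO and 1.19, 3.96, 0.66 and 0.95 with rUUO. Every injured stromal sample was below every sham sample by a wide margin. The log2 change was -3.90 ± 0.37 SE after UUO (adjusted p = 1.78e-06) and -3.51 ± 0.37 SE after rUUO (adjusted p = 9.38e-06), and with a pseudocount of 0.1 the first was -4.88. The endothelial change after UUO differed from it by 3.45 ± 0.39 SE (adjusted p = 2.39e-08).

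In endothelial cells Icam2 was far higher, at 168.35, 169.9, 132.38 and 153.92 FPKM in sham, 110.39, 142.46 and 92.41 in UUO and 106.56, 115.5, 119.3 and 94.67 in rUUO. All rUUO samples were below all sham samples, yet the change of -0.51 ± 0.17 SE did not pass the limma test (adjusted p = 0.173), nor did that after UUO (-0.45 ± 0.19 SE, adjusted p = 0.291). Macrophage Icam2 was 8.57 to 12 FPKM with sham surgery, 3.24 to 8.15 with UUO and 3.02 to 7.35 with rUUO. Neither macrophage change passed (adjusted p = 0.181 and 0.116), although the rUUO one did in a fit over all 4 populations (adjusted p = 0.0187). PT samples were at or below 0.65 FPKM, and that fit takes its spread from them too.

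The stromal fall of Icam2 stood beside a fall of 3 of the 7 endothelial markers tested, while 4 did not pass (13% of all genes were lower after UUO). The sum of the 8 endothelial markers ran from 231 to 298 FPKM in stromal sham, 84.1 to 146 in stromal UUO and 96.2 to 162 in stromal rUUO samples. Those that fell after UUO were Eng, Tek and Emcn, and none rose. The 7 had a median of -0.95 on the log2 scale beside -0.07 over all genes, and 2 were below sham after rUUO (5.57% of all genes lower). Eng, which stromal cells also express, made most of the sum in sham, at 150.54 to 221.33 FPKM, and was 30.74 to 84.18 in UUO and 35.15 to 53.34 in rUUO samples. Of the 4 that did not pass, Cdh5 (VE-cadherin) was 3.76 ± 1.39 FPKM in sham and 5.77 ± 3.58 in UUO (SD, n = 4 each), Flt1 4.73 ± 1.92 and 5.15 ± 2.33, and Kdr 5.56 ± 0.51 and 2.54 ± 1.25. As a percent of the endothelial marker sum, stromal Icam2 had a median of 9.26 in sham, 0.744 in UUO and 1.04 in rUUO, while Pecam1 had 2.69, 3.05 and 4.26.

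Other genes fell in stromal cells beside Icam2. Itga4, the alpha-4 integrin chain that binds VCAM-1, was 51.3 ± 6.85 FPKM in sham and 1.29 ± 0.25 in UUO (log2 change -4.51 ± 0.30 SE, adjusted p = 6.65e-08). Spn, the leukocyte sialomucin CD43, was 12.5 ± 3.19 and 0.948 ± 0.836 FPKM (-2.85 ± 0.35 SE, adjusted p = 2.04e-05), and Esam, an endothelial and platelet junction protein, 24.4 ± 3.94 and 3.55 ± 1.58 FPKM (-2.53 ± 0.32 SE, adjusted p = 3.09e-05). The 6 stromal markers summed to 1037 to 2604 FPKM in stromal sham, 6760 to 11935 in stromal UUO and 5117 to 6755 in stromal rUUO samples, and the 6 podocyte and parietal markers to 187 to 311, 67.01 to 130 and 168 to 236 FPKM. PT markers summed to 32.47 to 48.01 FPKM in stromal cells with sham surgery, 5.64 to 13.74 with UUO and 7.28 to 15.45 with rUUO. After UUO 4 of 5 tested were lower, where 13.4% of all genes were higher and 13% lower. Macrophage markers summed to 52.74 to 59.67, 26.5 to 39.15 and 30.81 to 45.05 FPKM (2 of 5 lower after UUO), and lymphatic markers to 12.42 to 24.17, 21.55 to 63.83 and 23.51 to 36.42 FPKM (2 of 3 higher after UUO). Neutrophil markers summed to at most 0.62 FPKM with sham surgery, 6.25 to 58.3 with UUO and 1.38 to 36.1 with rUUO. The 6 platelet markers summed to 8.02 to 80.96 FPKM in stromal sham, 3.99 to 56.9 with UUO and 4.61 to 14.2 with rUUO. The share of mitochondrial genes was 34.0 to 45.8% in stromal sham, 21.5 to 26.4% with UUO and 20.2 to 25.9% with rUUO. The part of these shifts in the stromal results was not tested.

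**Figure D2:**
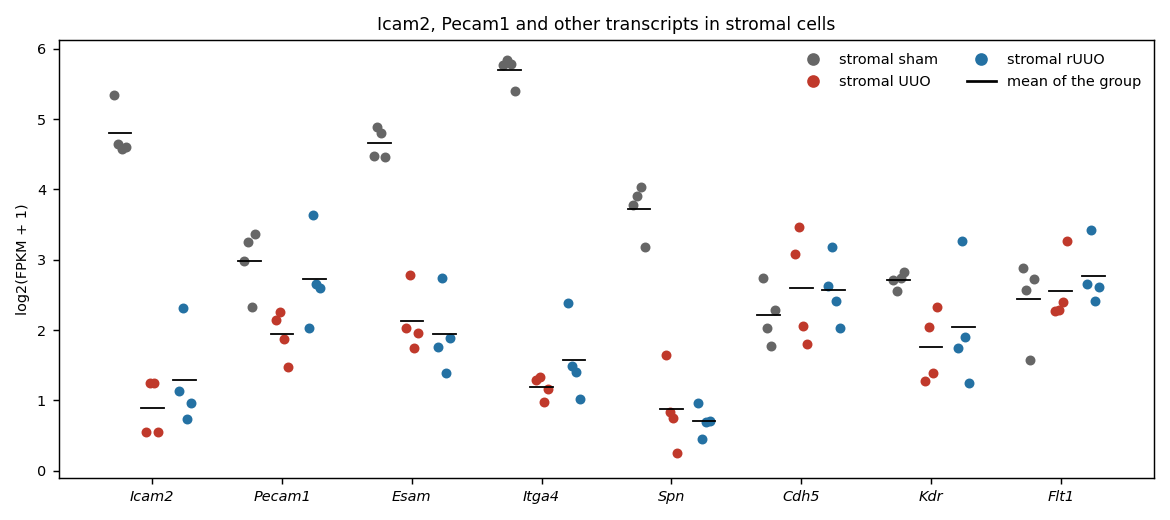
Points are the 4 stromal samples of each surgery, with log2(FPKM + 1) on the vertical axis, genes along the horizontal axis and a bar at each group mean. Icam2, Esam, Itga4 and Spn drop from sham to both injured groups without overlap, and Pecam1 and Kdr from sham to UUO only. Cdh5 and Flt1 are at 10.01 FPKM or below, and their groups overlap. The endothelial markers Eng, Tek and Emcn, which fell after UUO, are not drawn.

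Of the 7 members tested in stromal cells, Icam1, Vcam1 and Jam2 rose after UUO and Icam2 and Pecam1 fell, where 26.4% of 14033 genes were called, 13.4% higher and 13% lower. After rUUO Icam1, Vcam1 and Jam2 were above sham and Icam2 below (17.2% called, 11.6% higher and 5.57% lower). Between UUO and rUUO Vcam1 was the 1 member called of the 7 (4.17% called, 2.95% higher and 1.22% lower). The median of the 7 was 0.21 on the log2 scale after UUO, beside -0.07 over all genes tested. In macrophages 1 of 7 members, Icam1, rose after UUO (4.99% of 13332 genes called, 2.86% higher and 2.13% lower), and Icam1 and Vcam1 were above sham after rUUO (3.44% called, 1.89% higher and 1.55% lower). None passed from UUO to rUUO by limma, where 0% of genes were called and 1 member had an unadjusted p under 0.05. Neutrophil markers summed to 3.45 to 8.5 FPKM in macrophage sham, 11.64 to 94.35 with UUO and 7.03 to 23.7 with rUUO samples, and lymphocyte markers to 1.91 to 2.43, 4.1 to 63.6 and 7.57 to 31.4 FPKM. PT markers summed to 84.04 to 106 FPKM in macrophages with sham surgery, 13.81 to 25.31 with UUO and 13.88 to 15.21 with rUUO, with 4 of 5 tested lower after UUO and 5 of 5 after rUUO. The part of these markers in the macrophage results was not tested.

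Jam2, which encodes the junctional molecule JAM-B, was higher in endothelial cells after injury. The sham group read 45.4, 59.57, 33.89 and 34.76 FPKM, the UUO group 115.91, 103.14 and 132.63, and the rUUO group 126.41, 107.04, 145.13 and 98.61. UUO and rUUO overlapped each other and neither overlapped sham. The mean was 2.70 times that of sham after UUO (log2 change 1.44 ± 0.22 SE, adjusted p = 0.00213) and 2.75 times after rUUO (1.46 ± 0.20 SE, adjusted p = 0.00103), with 0.02 ± 0.22 SE between them (adjusted p = 0.987).

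Stromal Jam2 was lower, at 5.67, 6.49, 11.37 and 6.71 FPKM with sham surgery, 10.92, 15.46, 13.03 and 13.25 with UUO and 10.72, 15.48, 17.33 and 20.8 with rUUO. Sham replicate 3 overlapped both injured groups. The change was 0.76 ± 0.26 SE after UUO (adjusted p = 0.0432) and 1.00 ± 0.26 SE after rUUO (adjusted p = 0.0142), and the difference from the endothelial change after UUO did not pass (0.68 ± 0.43 SE, adjusted p = 0.334). Both stromal calls of Jam2 were lost with the mitochondrial genes left out of the scale. The UUO call was also lost with no filter on low values and without stromal sham replicate 1, 2 or 4 or stromal UUO replicate 2, 3 or 4 (adjusted p from 0.0658 to 0.121), and the rUUO call without stromal sham replicate 1 (adjusted p = 0.0503) or stromal rUUO replicate 6 (adjusted p = 0.0527). Macrophage and PT samples were between 0.05 and 3.87 FPKM.

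Pecam1, a homophilic junction molecule, was 409.29, 453.26, 322.3 and 324.43 FPKM in endothelial sham, 509.27, 530.37 and 438.74 in UUO and 492.23, 486.88, 457.69 and 475.22 in rUUO. All rUUO samples were above all sham samples, and the change of 0.36 ± 0.15 SE did not pass the limma test (adjusted p = 0.294), nor did that after UUO (0.40 ± 0.16 SE, adjusted p = 0.289). Stromal Pecam1 was 6.93, 8.49, 4.04 and 9.33 FPKM in sham and 3.42, 3.76, 2.68 and 1.78 in UUO, with no overlap (-1.05 ± 0.36 SE, adjusted p = 0.0433). That call was lost with no filter on low values, with quantile normalization, with the replicate numbers as a block, and without stromal sham replicate 1, 2 or 4 or stromal UUO replicate 1, 3 or 4 (adjusted p from 0.055 to 0.117). The endothelial change exceeded the stromal one by 1.44 ± 0.44 SE (adjusted p = 0.0218), which was lost without stromal UUO replicate 4 (adjusted p = 0.0536) and with quantile normalization (adjusted p = 0.0633).

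Vwf, which encodes von Willebrand factor, was 33.69, 32.89, 29.81 and 13.67 FPKM in endothelial sham, 76.93, 89.58 and 39.38 in UUO and 61.07, 15.89, 48.02 and 26.85 in rUUO. The 3 UUO samples were above all sham samples, and rUUO spread across both groups. The log2 change was 1.29 ± 0.42 SE after UUO (adjusted p = 0.157), -0.93 ± 0.42 SE from UUO to rUUO (adjusted p = 0.47) and 0.36 ± 0.39 SE from sham to rUUO (adjusted p = 0.718), none past the limma test. Macrophage samples had 1.26 to 15.69 FPKM and stromal samples 0.69 to 12.64, the highest being UUO replicate 1, and no change in either passed. Summed platelet markers, which belong to another source of von Willebrand factor, were 6.33 to 26.4 FPKM over the endothelial samples, from 174 to 859 FPKM over the macrophage samples, and mostly Pf4 in the latter, a gene that macrophages also express.

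**Figure D3:**
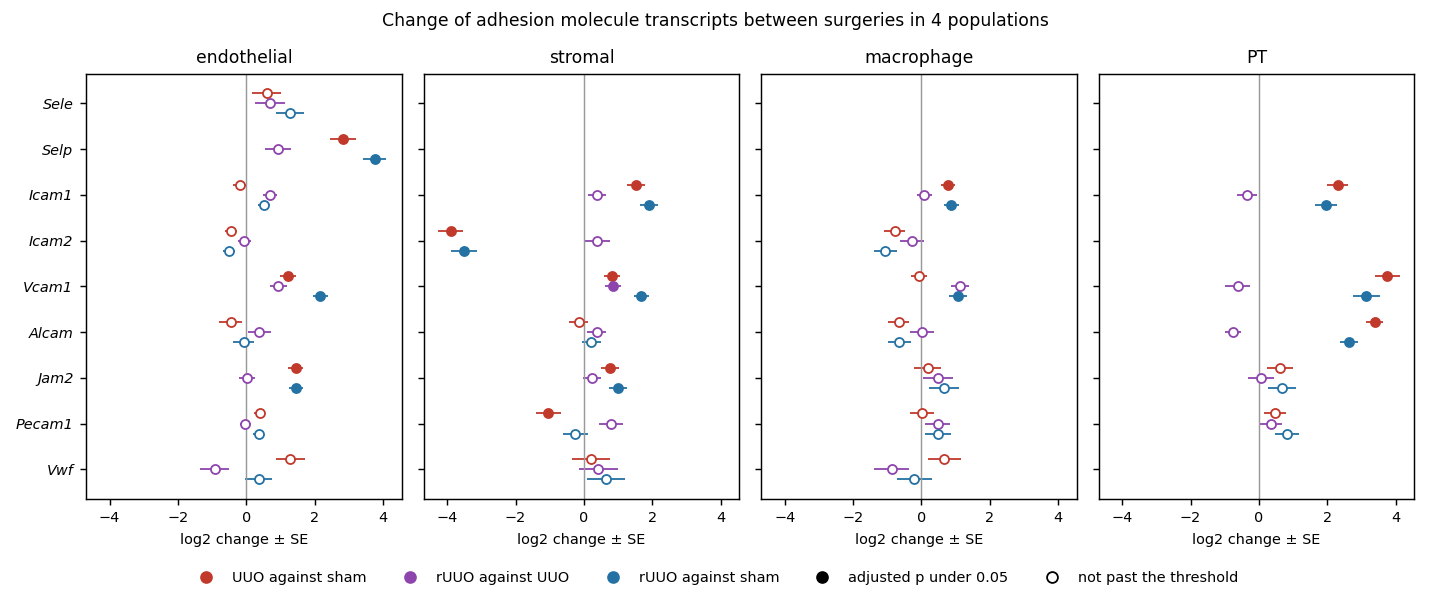
Points are log2 changes of FPKM + 1 from the limma fit of each population and bars their standard errors, with genes on the vertical axis, a panel for each population and filled points for an adjusted p under 0.05. Selp, Vcam1 and Jam2 are filled in the endothelial panel and Icam1, Vcam1 and Alcam in the PT panel, while Icam2 lies far to the left in the stromal panel.

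Over the 9 members, 4 changes after UUO differed between endothelial and stromal cells (13.1% of 14332 genes called in that contrast, 6.57% higher and 6.55% lower). One differed between endothelial cells and macrophages (2.31% called, 1.21% higher and 1.1% lower) and 4 between endothelial and PT cells (11.1% called, 1.06% higher and 10.1% lower). From UUO to rUUO no member passed by limma between endothelial and stromal cells (0.963% called, 0.579% higher and 0.384% lower, with 1 member at an unadjusted p under 0.05). None passed between endothelial cells and macrophages (0.154% called, 0.105% higher and 0.0488% lower, with 0 members at an unadjusted p under 0.05), and Vcam1 differed between endothelial and PT cells (2.09% called, 1.99% higher and 0.105% lower). The median difference over all genes was -0.40 between endothelial and PT cells after UUO and 0.38 from UUO to rUUO. The UUO change of Selp was larger in endothelial cells than in each of the other 3 populations, where its level was too low for a test within the population. Selp entered this fit only through its endothelial values, and log2(FPKM + 1) understates changes of low genes. These differences therefore do not set Selp apart from the other members. With a pseudocount of 0.1 its differences from stromal and PT cells did not pass.

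The order of the 12 group means was led by an endothelial group for 7 members, by stromal rUUO for Vcam1 and by PT UUO for Alcam. Of the 11 neighbouring pairs in each order, most overlapped between samples. Vcam1 had 4 pairs without overlap, Icam2 and Jam2 had 3, Icam1, Selp and Pecam1 had 2, and Sele, Alcam and Vwf had 1. For Sele the single gap lay between endothelial sham (2.90 FPKM) and stromal rUUO (0.298 FPKM), and for Alcam between macrophage rUUO (15.3 FPKM) and endothelial sham (4.32 FPKM). The highest mean of the group was that of Pecam1 in endothelial UUO at 493 FPKM, followed by Icam2 in endothelial sham at 156 FPKM, and the lowest of these peaks was that of Sele at 8.18 FPKM.

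Among 10684 genes, those whose 12 group means on the log2 scale were most like each member were listed as a description, with points that share 4 populations and their samples. Sele was followed by Klhl4 (Pearson's r = 0.994), 4930578C19Rik and Gm11707, and Selp by Hapln1 (r = 0.977), Lrg1 (r = 0.967) and the apelin receptor gene Aplnr (r = 0.961). Icam1 was followed by Jun (r = 0.964), Nfkb2 (r = 0.96) and Rnf135, and Vcam1 by Egr1 (r = 0.952), Nop58 and Arf3. For Alcam the closest were Stau2 (r = 0.898), the integrin gene Itgav (r = 0.894) and Fmn1. Icam2 was followed by Rapgef5 (r = 0.977), Sh2d3c and Rasgrf2, and Jam2 by Ldb2 (r = 0.988), Cd200 and Zfp57. Pecam1 was followed by Gimap4 (r = 0.995), Adgrl4 and Gm44226, and Vwf by Nxpe4 (r = 0.976), Ifi44 and Rsad2, the last pair known as interferon-induced genes. Within the group, Sele and Selp had r = 0.952, Icam1 and Vcam1 r = 0.882, and Sele and Alcam r = -0.66.

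Other vessel wall adhesion genes were counted from a list of 22, and from each list the largest rises and falls past the threshold are named. In endothelial cells 3 of the 18 tested rose after UUO and none fell (1.28% of all genes higher and 0.702% lower), with a median of 0.41 on the log2 scale beside 0.03 over all genes. Mcam, the junctional molecule CD146, went from 47.9 ± 9.64 to 98.04 ± 10.1 FPKM (1.04 ± 0.21 SE, adjusted p = 0.0143), and Pvr, the poliovirus receptor CD155, from 11.5 ± 0.49 to 25.4 ± 6.80 FPKM (1.05 ± 0.26 SE, adjusted p = 0.0468). After rUUO 2 of 18 were above sham (1.4% of all genes). Ackr1, the chemokine-carrying receptor of venules, went from 0.0225 ± 0.045 to 4.30 ± 1.85 FPKM (2.31 ± 0.50 SE, adjusted p = 0.0251), and Cd34, a sialomucin that can carry selectin ligands, from 217 ± 31.3 to 398 ± 65.8 FPKM (0.87 ± 0.16 SE, adjusted p = 0.00861).

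In stromal cells 4 of the 16 tested vessel wall genes rose after UUO and 7 fell (13.4% of all genes higher and 13% lower), with a median of -0.10 beside -0.07 over all genes. Thbd (thrombomodulin, 1.59 ± 0.31 SE, adjusted p = 0.00113) and Aoc3 (vascular adhesion protein VAP-1, 1.5 ± 0.29 SE, adjusted p = 0.00108) rose most, and Podxl (podocalyxin, -2.73 ± 0.31 SE, adjusted p = 1.03e-05) and Esam fell most. In PT cells 7 of 15 rose and 1 fell, where 27.9% of all genes were higher and 4.91% lower, and the median of the 15 was 0.77 beside 0.51 over all genes. Leading were Pvr (2.18 ± 0.30 SE, adjusted p = 8.79e-05) and Bst1 (1.99 ± 0.42 SE, adjusted p = 0.00298), and Jam3 fell (-1.14 ± 0.31 SE, adjusted p = 0.0125). In macrophages none of 14 passed after UUO by limma, with 3 at an unadjusted p under 0.05.

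On the leukocyte side, 1 of the 14 counter-receptor genes tested in macrophages rose after UUO and 2 fell (2.86% of all genes higher and 2.13% lower). Itgam, the alpha chain of the ICAM-1 receptor Mac-1, was 61.97 to 91.74 FPKM in the sham group and 235.48 to 445.04 in the UUO group (log2 change 2.02 ± 0.21 SE, adjusted p = 9.52e-05). Spn (-1.14 ± 0.19 SE, adjusted p = 0.0034) and Selplg, which encodes the P-selectin ligand PSGL-1 (-0.80 ± 0.20 SE, adjusted p = 0.0309), fell. The median of the 14 was -0.24 beside -0.03 over all genes. In stromal cells 2 of 8 rose after UUO, led by Cd44 (2.45 ± 0.23 SE, adjusted p = 1.87e-06), and 2 fell, where 13.4% of all genes were higher and 13% lower.

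Of the Weibel-Palade body and VWF processing genes, 1 of 11 tested in endothelial cells passed after UUO (1.98% of all genes called). That was Rab27a, a small GTPase of granule traffic, which fell (-1.48 ± 0.34 SE, adjusted p = 0.0376), and the median of the 11 was -0.01. After rUUO none of the 11 passed by limma, with 1 at an unadjusted p under 0.05. In PT cells 5 of 8 of these genes rose after UUO, led by Edn1 (2.68 ± 0.28 SE, adjusted p = 7.84e-06), the gene of endothelin-1, where 27.9% of all genes were higher. The median of the 8 was 0.92 beside 0.51 over all genes.

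NF-kB feedback and target genes, a list of genes switched on with NF-kB, were counted beside the members, with no test of the list as a set. In endothelial cells none of 15 passed after UUO by limma, with 3 at an unadjusted p under 0.05, and 2 were above sham after rUUO (1.4% of all genes), with medians of 0.39 and 0.58 beside 0.03 and 0.19 over all genes. The 2 were Nfkbiz, from 2.94 ± 0.64 to 12.5 ± 1.54 FPKM (1.78 ± 0.27 SE, adjusted p = 0.00221), and Bcl3, from 8.30 ± 3.14 to 32.0 ± 13.6 FPKM (1.80 ± 0.33 SE, adjusted p = 0.00988), both nuclear regulators of the IkB family. In PT cells 11 of 13 rose after UUO (27.9% of all genes higher), with a median of 1.64 beside 0.51, led by Bcl3 (2.76 ± 0.33 SE, adjusted p = 2.69e-05) and Nfkbiz (2.43 ± 0.27 SE, adjusted p = 1.63e-05). In stromal cells 4 of 15 rose and 1 fell (13.4% of all genes higher and 13% lower), with a median of 0.27 beside -0.07. In macrophages 1 of 16 rose and 1 fell (2.86% of all genes higher and 2.13% lower).

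Of 9 cytokine receptor genes, none passed in endothelial cells after UUO by limma, with 0 at an unadjusted p under 0.05, and 1, Il6st, was above sham after rUUO (0.89 ± 0.19 SE, adjusted p = 0.0259), where 1.4% of all genes were higher. In stromal cells 4 of 9 rose after UUO (13.4% of all genes higher), led by Il1r1, the interleukin-1 receptor (2.33 ± 0.22 SE, adjusted p = 1.78e-06). In PT cells 6 of 7 rose (27.9% of all genes higher), with a median of 1.38 beside 0.51, led by Tnfrsf1a, the main TNF receptor (1.88 ± 0.27 SE, adjusted p = 0.000123), and Il1r1 (1.78 ± 0.27 SE, adjusted p = 0.000255). In macrophages none of 8 passed after UUO by limma, with 1 at an unadjusted p under 0.05.

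Markers of other cells were read beside the endothelial results. PT markers summed to 35.21 to 128 FPKM in endothelial cells with sham surgery, 13.73 to 39.89 with UUO and 12.92 to 54.39 with rUUO, with a median log2 change of -1.15 after UUO, where none of 6 passed by limma and 4 had an unadjusted p under 0.05. Summed macrophage markers were 40.3 to 58.2 FPKM in endothelial sham, 38.7 to 58.1 with UUO and 47.0 to 75.0 with rUUO, against at least 3553 in macrophage samples. The sum of the 6 lymphatic endothelial markers ran between 77.96 and 93.2 FPKM with sham surgery, 113 and 255 with UUO and 111 and 481 with rUUO, without overlap with sham, and none of the 6 passed alone by limma, with 1 at an unadjusted p under 0.05 after UUO and 4 after rUUO. Ccl21a made up much of that sum, at 20.55 to 36.08 FPKM with sham surgery, 16.46 to 164.17 with UUO and 19.39 to 365.49 with rUUO. The sum of podocyte and parietal epithelial markers was 294 to 630 FPKM with sham surgery, 320 to 332 with UUO and 446 to 498 with rUUO, mostly Podxl, which endothelial cells also express. Neutrophil and lymphocyte marker sums were at most 5.72 and 1.02 FPKM in any endothelial sample. The part of the PT, lymphatic and podocyte marker shifts in the endothelial results was not tested.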

How the data were processed

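RNA of the 4 sorted populations was amplified (Ovation RNA-Seq System V2) and sequenced in paired reads of 150 bases. The authors deposited 1 table of FPKM values for 53465 genes with 2 decimals and GRCm38 coordinates, and the submitters' processing notes name FastQC, Bowtie2, RSEM, DESeq2 and mm10, without roles or versions. Of 46 value columns 44 were used: 2 columns share the name of 1 endothelial UUO sample and were left out, and PT sham replicate 3 was not analysed here. FPKM depend on what else a library holds, so a population rich in mitochondrial RNA has lower values elsewhere.

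FPKM were tested as log2(FPKM + 1), a scale that understates changes of low genes, with limma 3.58.1 in R 4.3.3 (moderated statistics with a trend, 2-sided). Genes whose mean over the fitted samples was under 1 FPKM were left out. Surgeries were compared within each population, endothelial cells with the other populations in sham, and the differences between their surgery changes in 1 fit. P-values were adjusted over all genes tested (Benjamini-Hochberg, threshold 0.05). Counts at an unadjusted p under 0.05 have no share over all genes beside them and support no call. The fits were tested on simulated data. Sums and figures were made with Python 3.11.15, numpy 2.4.6, pandas 2.3.3 and matplotlib 3.10.9.

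All 9 members are named throughout. The 3 genes most like each member were searched among genes averaging 1 FPKM or more, and 8 FPKM or more in the highest group, and from each pathway list at most 2 rises and 2 falls past the threshold are named. Eng, Cdh5, Flt1, Kdr and Ccl21a were singled out after their values were seen, as was Esam beside Icam2. Members and lists were chosen with earlier results of these data known. Itgam and Ccl21a were on 2 rows, of which that with the higher mean was used, and 1 list symbol was not found. Alternatives were a pseudocount of 0.1, no filter, quantile normalization, rescaling without the 37 mitochondrial genes, a fit over all populations, a replicate block and each replicate left out.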

Additional observations from a re-analysis of the deposited data

Results flagged for a closer look

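In 72 sets of 4 samples (1 gene in 1 group), 6 samples stood apart from the other 3 on the log2 scale by Dixon's 95% limit on the gap as a share of the set's range. Chance alone gives about 1 in 20. Sele in stromal rUUO replicate 2 was 1.02 FPKM against 0.1 or less in the others (gap 0.864 of the range). Icam2 in stromal sham replicate 1 was 39.66 FPKM against 22.91 to 24.1 (0.909), and without it the stromal UUO change of Icam2 was -3.71. Icam2 in PT UUO replicate 3 was 0.65 FPKM against 0.45 to 0.48 (0.842). Alcam in stromal UUO replicate 3 was 27.3 FPKM against 15.41 to 15.8 (0.957). Jam2 in PT UUO replicate 1 was 3.87 FPKM against 0.87 to 1.02 (0.919). Vwf in endothelial sham replicate 4 was 13.67 FPKM against 29.81 to 33.69 (0.862).

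Of the changes, 10 differed between endothelial cells and another population by the limma test of the difference itself, given here as log2 differences, endothelial minus the other. After UUO against sham, Selp differed from stromal cells by 2.6019, from macrophages by 3.8789 and from PT cells by 2.5793. Icam1 differed by -1.7015 from stromal cells and by -2.4797 from PT cells. Icam2 differed from stromal cells by 3.4451 and Pecam1 by 1.4419. Vcam1 differed from PT cells by -2.5369 and Alcam by -3.8417. From UUO to rUUO, Vcam1 differed from PT cells by 1.56.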

How the results depend on the processing

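Of the 9 members, Selp and Jam2 in endothelial cells, Icam1 and Icam2 in stromal cells and Icam1, Vcam1 and Alcam in PT cells kept their calls against sham under the alternatives run. The number of members past the threshold went from 5 to 3 in stromal UUO against sham with no filter and with the mitochondrial genes left out of the scale. Over all genes, 3704 of 14033 were called there as deposited, 3364 of 27765 with no filter and 4247 of 16685 with rescaling. The number of members went from 1 to 0 in stromal rUUO against UUO with no filter, quantile normalization, rescaling and the replicate block. Of all genes, 585 of 14033 were called there as deposited, then 200 of 27765, 361 of 14033, 470 of 16685 and 116 of 14033. In macrophages the number of members went from 1 to 0 after UUO under the same 4 settings. All-gene calls were 665 of 13332 as deposited, then 364 of 26782, 661 of 13332, 622 of 15165 and 346 of 13332. After rUUO the number of members went from 2 to 0 with no filter or the block and to 1 with rescaling. All-gene calls were 459 of 13332 as deposited, then 303 of 26782, 115 of 13332 and 438 of 15165. For endothelial less PT cells from UUO to rUUO the number of members went from 1 to 0 with no filter, quantile normalization and rescaling. Of all genes, 300 of 14332 were called there as deposited, then 291 of 31810, 72 of 14332 and 117 of 17103. For endothelial cells less macrophages after UUO the number of members went from 1 to 2 with quantile normalization, where Vcam1 passed (adjusted p = 0.0469). All-gene calls there were 331 of 14332 as deposited and 346 of 14332 with that setting. Alcam between endothelial and PT sham cells turned to -0.2502 with quantile normalization, and the cause was not tested.

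With single replicates left out the counts were 3 to 5 in stromal UUO, 0 to 1 in stromal rUUO against UUO, 0 to 1 and 0 to 1 in macrophage UUO and rUUO against sham, 1 to 2 for endothelial cells less macrophages after UUO and 0 to 1 for endothelial less PT cells from UUO to rUUO. The counts of 2 came without macrophage sham replicate 4 (Jam2, adjusted p = 0.031) or macrophage UUO replicate 3 (Vcam1, adjusted p = 0.0386).

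Of same-numbered samples, 1 of 8 PT pairs between surgeries and 2 of 21 pairs between populations in sham correlated over 0.1. Of different-numbered samples, 0 of 25 and 0 of 63 such pairs did, and the other sets of pairs held none. Correlations this weak cannot decide whether replicate numbers pair the samples. With the replicate block the endothelial UUO call of Vcam1 was lost (adjusted p = 0.104), as were those of Pecam1 in stromal UUO (0.0557), Vcam1 in stromal rUUO against UUO (0.173), Icam1 in macrophage UUO (0.107) and rUUO (0.219) and Vcam1 in macrophage rUUO (0.288). The block changed no other call.

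The share of all called genes that were higher moved by over 10 points in several comparisons. In PT cells it was 85% after UUO as deposited, 51.8% with quantile normalization and 71.3% with rescaling, 17.6, 59.3 and 54.2% from UUO to rUUO, and 87.3, 69.6 and 80.5% after rUUO. In stromal cells it was 50.8, 50.3 and 37.3% after UUO, 70.8, 54.0 and 65.5% from UUO to rUUO and 67.6, 51.9 and 49.1% after rUUO. In endothelial cells it was 64.5, 54.7 and 48.8% after UUO, 75.0, 33.3 and 77.8% of 8, 3 and 9 calls from UUO to rUUO, and 79.3, 60.7 and 78.7% after rUUO. In sham it was 86.0, 54.0 and 69.3% against PT cells and 53.6, 52.5 and 67.3% against macrophages. For the differences it was 9.54, 35.8 and 11.9% against PT cells after UUO and 95.0, 52.8 and 89.7% from UUO to rUUO, 52.3, 48.8 and 36.1% against macrophages after UUO and 68.2, 40.0 and 66.7% from UUO to rUUO, and 60.1, 68.9 and 74.1% against stromal cells from UUO to rUUO.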
